A study of Mus musculus with 4 samples.

Results

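Mitochondrial ribosomal protein genes were examined in mouse embryonic stem cells with and without intact Drosha, the nuclear RNase III enzyme that starts microRNA processing. Members were the protein-coding genes whose symbol is Mrpl or Mrps followed by a number, with symbols marking pseudogenes left out. The rule used names and biotypes and no measured value. It found 77 genes among the 43629 gene rows of each library, and 76 of them had enough counts to be tested among the 17022 genes that passed the filter on low counts. The gene without enough counts was Mrpl53, with 0 counts in all 4 libraries. One more gene of this name in the annotation, Mrpl33, matched no row and was not analysed here.

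The mitochondrial ribosome is built in the mitochondrial matrix from ribosomal RNAs made by the mitochondrial genome and from proteins that are all encoded in the nucleus, translated in the cytosol and imported. It translates only the messages of the mitochondrial genome, which code for core subunits of the respiratory chain and ATP synthase. A part of its proteins descends from those of bacterial ribosomes, and a further part is found only in mitochondria. Embryonic stem cells of the mouse rely strongly on glycolysis while keeping respiration active.

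Poly(A) RNA was measured in 4 libraries. The 2 knockout libraries carried different alleles: KO1 lacked the proline-rich region of Drosha and KO2 the arginine/serine-rich region, both at passage 7 and both with "d5" in the title, which the labels leave unexplained. The 2 wild-type libraries came from E14, an established stem cell line: WT1 at passage 33 and WT2 at passage 42, both marked as samples used before. All cells were blastocyst-derived, on the 129/Ola background, and grown in serum plus LIF, a cytokine that keeps stem cells undifferentiated. Genotype, passage, the d5 mark and the origin of the libraries run together in this design and cannot be told apart. The labels name no separate cultures, and a p-value here speaks only of how far these 4 libraries spread, which may be technical variation.

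Library totals ran from 29264632 to 42322129 counts. Drosha stood at 158 and 158 CPM (the library's reads scaled by TMM to a common depth) in the knockouts against 364 and 357 in the wild types, a log2 fold change of -1.19 ± 0.11 (SE; edgeR quasi-likelihood adjusted p = 0.0482). The 2 knockout libraries were nearly alike, with a chi-square per degree of freedom of 2.26 over genes against 166.7 for the wild-type pair. All 8 stem cell markers were tested and 1 was called, Utf1 (12.5%, against 3.51% of all tested genes called higher). Utf1 stood at 304 and 261 CPM against 82.8 and 48.4 CPM (2.11 ± 0.31). The other 7 ran from -0.51 (Tdgf1) to 0.71 (Pou5f1), with 3 of them above 0. The summed CPM of the list was 6543 and 6608 for KO1 and KO2 beside 5569 and 6358 for the wild types. Of 12 endoderm markers, 11 were tested and 3 were called lower in the knockouts (Lama1, Cubn and Col4a1). That is 27.3%, against 1.94% of all tested genes. In all 11, both knockouts lay below both wild types (100%, against 34.8% of all tested genes). The median log2 fold change of the 11 was -2.09. The summed level of the list was 389 and 387 CPM against 665 and 926 CPM. Of 8 neuronal markers, 5 were tested and 2 were called higher, Tubb3 and Pax6 (40%, against 3.51% of all tested genes). The list summed to 112 and 113 CPM against 59.0 and 68.1 CPM. Of the 5 neuronal markers tested, 4 lay above 0 (80%, against 49.2% of all tested genes) and Map2 lay below it, at -0.26. Of 10 fibroblast and feeder markers, 7 were tested and 0 called, with sums of 64.1 and 58.0 CPM against 41.9 and 33 CPM. All 7 of these lay above 0 in log2 fold change (100%, against 49.2% of all tested genes). Dcn, a defining fibroblast marker, stood at 1.65 and 0.541 CPM in the knockouts and had 0 counts in both wild types, and Col3a1 stood at 1.52 and 0.316 CPM against 0.0251 and 0 CPM. Lum and Postn, too low to be tested, had counts in the knockouts alone, and Twist2 had 0 in all libraries. The part of these cell types in the values below was not tested, and in bulk RNA fewer cells of a type and less RNA per cell cannot be told apart.

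Promoter sequence was read first, since it belongs to the members and not to the comparison. RefSeq windows (build GRCm38.p6) from 250 bases before to 50 bases after a start site matched 68 of the 77 members by name. The windows were searched on both strands for the letters CCGGAAG, the core bound by ETS factors such as GABPA, GCATGCGC, the core bound by NRF1, and AAGATGGCG, the core bound by YY1. The NRF1 letters overlap their own reverse complement, so 1 site can match on both strands. These are the factors known as regulators of nuclear genes for mitochondria. The ETS letters stood in the windows of 25 of 68 members (36.8%) against 9.93% of all 27025 genes in the table. The NRF1 letters stood in 7 members (10.3% against 3.05%) and the YY1 letters in 8 (11.8% against 1.64%). The 27025 genes include ones that did not pass the filter on low counts, so they are not matched to the members in expression. A match is a description of letters and not evidence of binding.

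The stretches below show 1 match each, in capitals, 5′ to 3′ on the strand of the gene, for 6 members whose match lies wholly before the start site, chosen after their values were seen to show each set of letters at positive fold changes and, for the ETS and NRF1 letters, at negative ones too. Their positions are chr8:71464878-71464907 on the plus strand (Mrpl34), chr17:46110967-46110996 on the plus strand (Mrps18a), chr9:105053238-105053267 on the plus strand (Mrpl3), chr11:97041437-97041466 on the plus strand (Mrpl10), chr16:84735349-84735378 on the minus strand (Mrpl39) and chr7:78783013-78783042 on the plus strand (Mrps11). The last one holds the YY1 letters as their reverse complement.
Mrpl34 (ETS): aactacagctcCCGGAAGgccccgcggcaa
Mrps18a (ETS): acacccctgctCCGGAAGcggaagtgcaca
Mrpl3 (ETS): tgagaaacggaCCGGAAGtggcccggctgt
Mrpl10 (NRF1): cccagctccacGCATGCGCatagcggccct
Mrpl39 (NRF1): aggagaggcgcGCATGCGCccccgcgtggc
Mrps11 (YY1): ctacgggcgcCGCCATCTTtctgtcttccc

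Members with the ETS letters and members without them both covered a wide range. Of 24 tested members with the ETS letters, 3 were called higher in the knockouts (Mrps12, Mrpl34 and Mrpl57) and the median log2 fold change was 0.21. Of 43 without them, 2 were called (Mrpl2 and Mrpl28) and the median was -0.07. Over all tested genes 3.51% were called higher. With trends with GC content and length removed, the medians were 0.08 and -0.02 and no member was called. The same ETS letters stood before Mrpl34, at 1.12, and before Mrpl3, at -0.54. None of the 7 tested members with the NRF1 letters and none of the 8 with the YY1 letters was called, with medians of 0.06 and -0.01.

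Across the members, 7 were higher in the Drosha knockouts and 0 were lower at an adjusted p under 0.05, out of 76 tested. The share called higher was 9.21%, against 3.51% of all tested genes, and 1.94% of all tested genes were called lower (5.45% in either direction). The 7 were Mrps12, Mrpl4, Mrpl34, Mrpl2, Mrpl57, Mrpl38 and Mrpl28, with log2 fold changes from 0.81 to 1.82. The median over the 76 members was 0.06, beside -0.02 over all tested genes, and 44 members lay above 0 (57.9%, against 49.2% of all genes). The SD of the log2 fold change was 0.54 over members, 0.96 over all tested genes and 0.87 over protein-coding ones. It was 0.38 over mitochondrial translation factors, 0.58 over mitoribosome assembly factors and 0.76 over mitochondrial aminoacyl-tRNA synthetases. A spread below that of all genes was thus not particular to the members, and the sets were not matched for level.

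All 7 calls had the same adjusted p of 0.0482, which was also the smallest in the whole table, so they sat just inside the threshold. All 7 were lost with upper-quartile scaling or library totals, with the knockout libraries summed as 1 sample (added after seeing the data), and without KO1 or without KO2, while 65 members (85.5%, against 77.7% of all genes) were called without WT1 and 55 (72.4%, against 68.0%) without WT2, where the lone wild type is assumed to vary like the knockouts. DESeq2 called 15 members higher (19.7%, against 12.4% of all genes) and 2 lower (2.63%, against 10.3%). At an unadjusted p under 0.05, 19 members were higher (25%, against 19.4% of all genes) and 7 lower (9.21%, against 17.7%). Both knockout libraries lay above both wild types for 33 members (43.4%, against 36.5%) and below both for 23 (30.3%, against 34.8%), and the groups overlapped for 20.

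**Figure D1:**
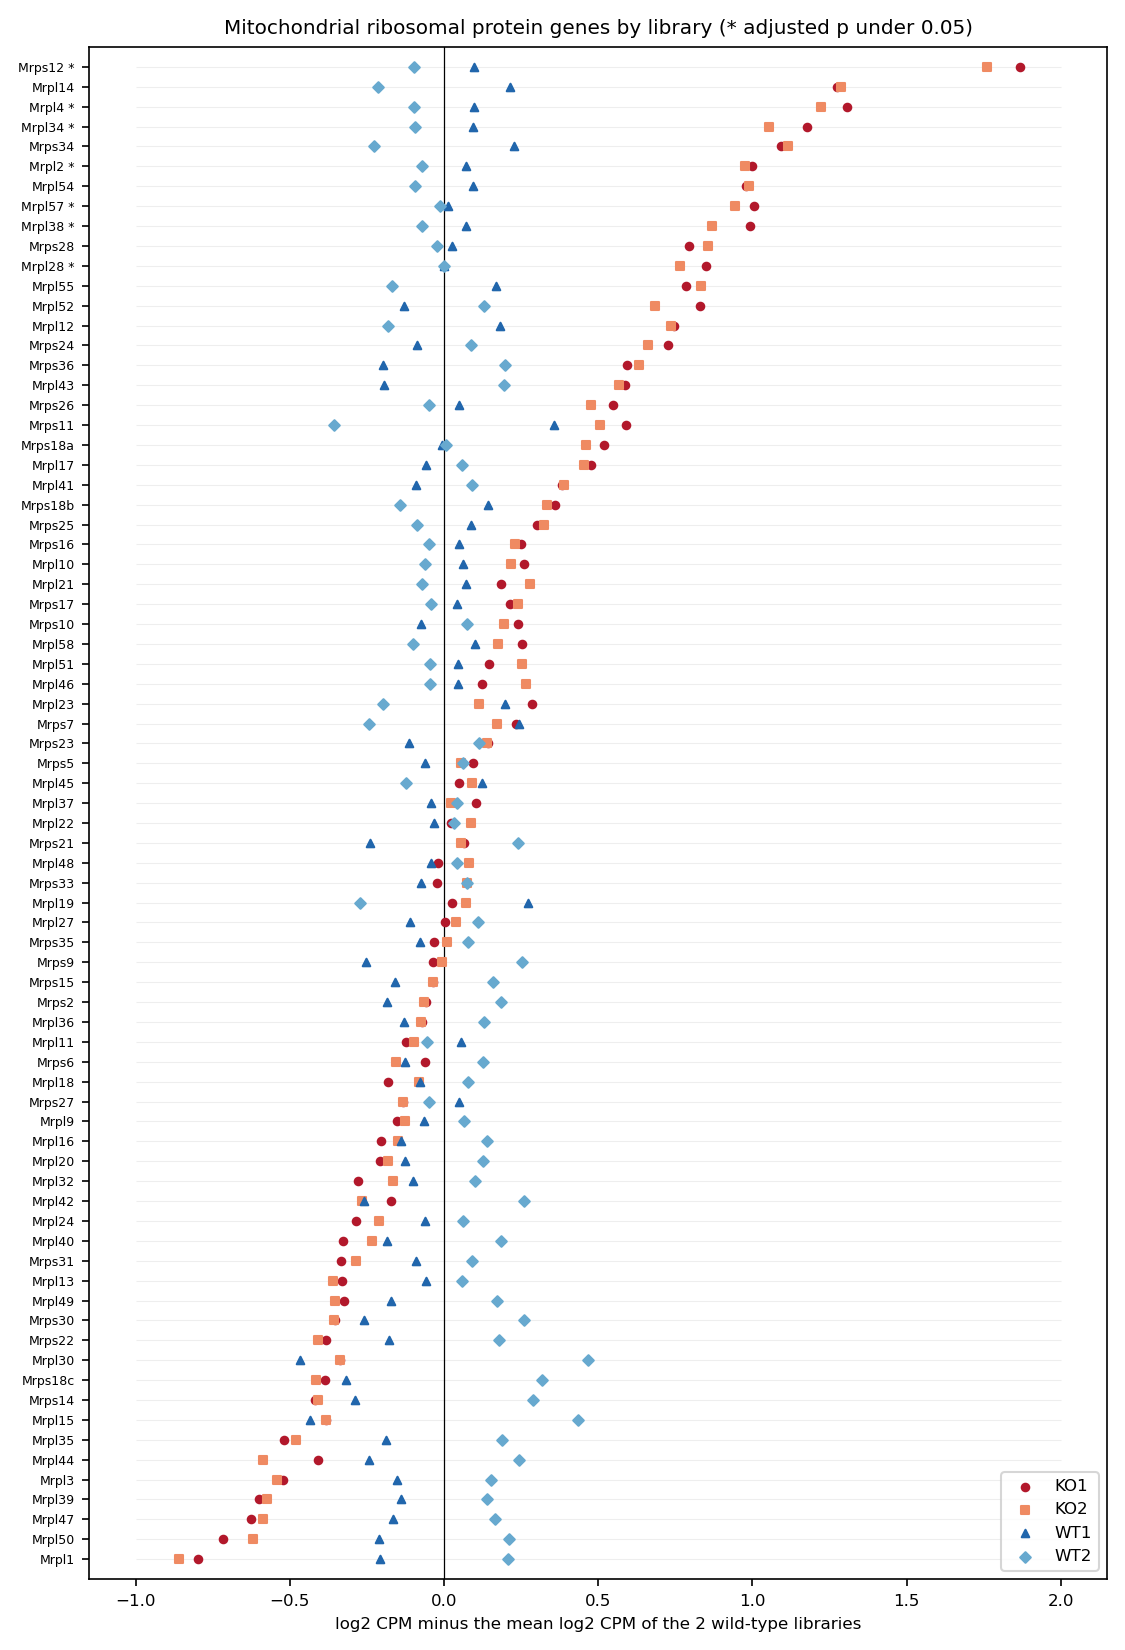
Log2 CPM of each of the 76 tested members in each library, minus the mean log2 CPM of the 2 wild-type libraries, ordered by the fitted log2 fold change. Red and orange points (KO1 and KO2) nearly coincide for most members, blue points (WT1 and WT2) lie up to 0.93 apart, and asterisks mark the 7 members with an adjusted p under 0.05.

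Summed over all members, the message for mitochondrial ribosomal proteins was level between the groups. The sum came to 4362 CPM (KO1) and 4352 CPM (KO2) against 4042 CPM (WT1) and 4675 CPM (WT2). Both knockouts fell between the wild types, and the ratio of the group means was 1.00 (exact permutation test, two-sided, p = 1, with 0.333 the smallest p that 2 against 2 libraries allow). For the large subunit the ratio was 0.974, with both knockouts again between the wild types. For the small subunit it was 1.06, from 1294 and 1284 CPM against 1148 and 1274 CPM, with both knockouts above both wild types. The same permutation test gave p = 0.333, the smallest it allows. The difference of means was smaller than the gap between WT1 and WT2. This small subunit ratio was 1.05 with DESeq2's size factors, where both knockouts fell between the wild types, and 1.18 on library totals. As a share of all counts, the members took 0.460% and 0.456% in the knockouts and 0.402% and 0.424% in the wild types. On library totals without TMM scaling the ratio of the sums became 1.11, with both knockouts above both wild types.

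Among proteins of the small subunit, Mrps12 moved most. It encodes the homologue of bacterial S12, a protein of the decoding centre, and lies at chr7:28739641-28741820 on the minus strand (mm10). Mrps12 stood at 35.1 and 32.6 CPM in KO1 and KO2 against 10.2 and 8.94 CPM for WT1 and WT2. The groups were far apart and each pair was tight, for a log2 fold change of 1.82 ± 0.16 (adjusted p = 0.0482). It was the only one of 26 small subunit members called (3.85%, against 3.51% of all tested genes called higher), and the median of the subunit was 0.11. Next in size was Mrps34, a mitochondria-specific protein, with 25.3 and 25.8 CPM against 13.9 and 10.1 CPM (1.09 ± 0.21, adjusted p = 0.0564). Of its 50-base stretches, 38.4% also occur in Nme3, whose exons it overlaps on the same strand, so its count may be split.

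The large subunit held the other 6 calls among 49 tested members (12.2%, against 3.51% of all tested genes called higher), beside a median of 0.03. The difference between the subunits was not tested. Mrpl4, the homologue of bacterial L4 (chr9:21002738-21008839, plus strand), stood at 77.6 and 73.1 CPM against 33.5 and 29.3 CPM. Its log2 fold change was 1.26 ± 0.14. Mrpl34, a small homologue of bacterial L34 (chr8:71464959-71465747, plus strand), stood at 33.1 and 30.4 CPM against 15.6 and 13.7 CPM, or 1.12 ± 0.16. In both genes no library crossed between the groups. Both knockouts lay above both wild types in 36.5% of all tested genes, and these 2 were named for their calls.

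Mrpl2, the homologue of bacterial L2, which lies near the catalytic centre (chr17:46646229-46650139, plus strand), stood at 87.3 and 85.9 CPM against 46.0 and 41.5 CPM. Its log2 fold change was 0.99 ± 0.13. Mrpl28 (chr17:26123500-26126613, plus strand), a further bacterial homologue, stood at 91.7 and 86.6 CPM against 50.9 and 50.8 CPM (0.81 ± 0.12). The wild-type pair was nearly equal there.

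The remaining pair of calls encode proteins found only in mitochondrial ribosomes. Mrpl57 (chr14:57826234-57829296, plus strand) stood at 25.5 and 24.5 CPM against 12.8 and 12.6 CPM, or 0.98 ± 0.15. Mrpl38, a protein of the central protuberance (chr11:116131817-116138868, minus strand), stood at 77.9 and 71.5 CPM against 41.1 and 37.3 CPM, or 0.93 ± 0.13. None of the 7 called members shares exons with another gene on either strand, and at most 0.18% of the 50-base stretches of any of them occur in another gene.

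**Figure D2:**
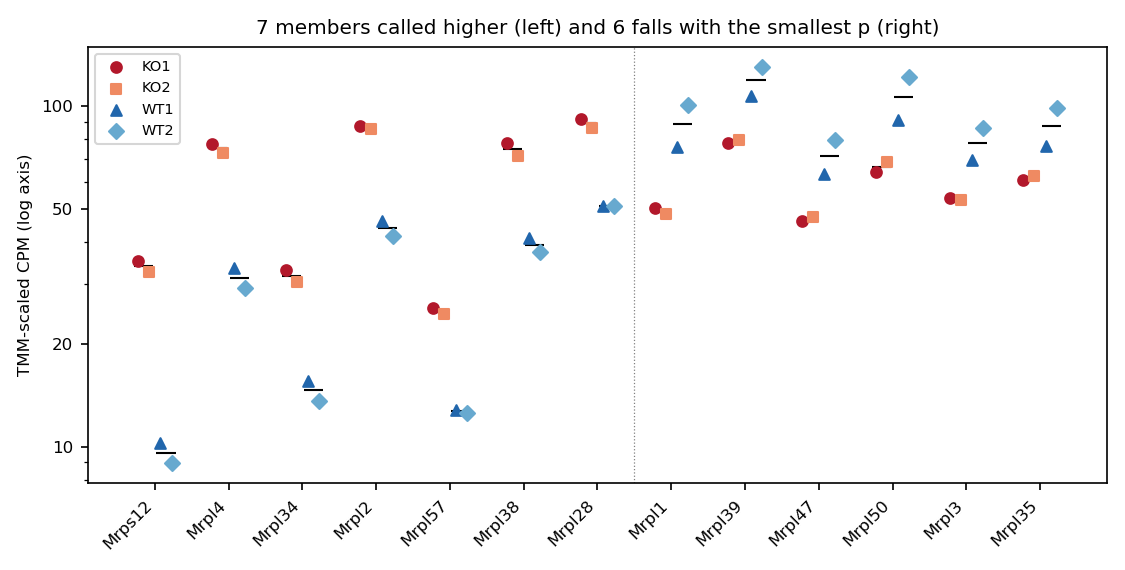
TMM-scaled CPM (log axis) in each library for the 7 members called higher and the 6 members with the smallest p among those below 0, with short lines at the group means of 2 libraries. Left of the dotted line both knockouts stand above both wild types in all 7 genes. To its right they stand below both wild types in all 6 genes, and WT2 is above WT1 in each, as in 46 of all 76 tested members. The genes were chosen by the test on these same libraries, so the separation of the groups follows largely from the choice.

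A further 5 members lay just outside the threshold, with an adjusted p from 0.05 to 0.06: Mrpl14 (1.27), Mrpl54 (0.98), Mrps34 (1.09), Mrps28 (0.83) and Mrps24 (0.69). These log2 fold changes were positive before the trends with GC content and length described below were removed. After that step they were 0.13, -0.29, -0.09, 0.32 and 0.08 in the same order. Mrpl14 stood at 22.9 and 23.1 CPM against 10.9 and 8.14 CPM, a ratio close to that of Mrpl4, with a wider wild-type pair. Its exons overlap those of Tmem63b on the opposite strand.

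No member was called lower. The 6 with the smallest p among those below 0 were Mrpl1, Mrpl39, Mrpl47, Mrpl50, Mrpl3 and Mrpl35, all of the large subunit. Mrpl1, the homologue of bacterial L1, which forms a mobile stalk beside the exit site for tRNA (chr5:96209493-96266727, plus strand), stood at 50.4 and 48.2 CPM against 75.9 and 101 CPM. The value was -0.84 ± 0.18 (adjusted p = 0.063), with both knockouts below both wild types. Mrpl50 stood at 64.1 and 68.7 CPM against 91.2 and 122 CPM (-0.68 ± 0.19, adjusted p = 0.0845). The other 4 had log2 fold changes of -0.62 (Mrpl47), -0.59 (Mrpl39), -0.54 (Mrpl3, next to the catalytic centre) and -0.51 (Mrpl35). In all 6, WT2 was above WT1, as in 46 of all 76 tested members.

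By lists of structural regions, 1 of 7 central protuberance members was called (Mrpl38), beside 3.51% of all tested genes called higher. None was called among 3 stalk members, 6 members listed for the exit tunnel and 3 MRPS18 paralogues. The exit tunnel list was Mrpl17, Mrpl22, Mrpl23, Mrpl24, Mrpl45 and Mrpl47. It did not hold Mrpl4, which was called, so its count speaks of the listed genes alone. The stalk proteins recruit translation factors. Among them Mrpl12, which also binds the mitochondrial RNA polymerase, stood at 113 and 112 CPM against 76.4 and 59.5 CPM (0.73 ± 0.17, adjusted p = 0.0666), and the value was 0.02 with trends removed. Mrpl10 had a log2 fold change of 0.24 and Mrpl11 one of -0.11, so the 3 spread over both sides of 0. On the central protuberance, Mrpl58, a peptidyl-tRNA hydrolase that became a ribosomal protein, had 34.7 and 32.8 CPM against 31.2 and 27.1 CPM (0.21 ± 0.15, adjusted p = 0.346).

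The MRPS18 paralogues descend from 1 bacterial protein, S18. Mrps18a, whose product sits in the large subunit despite its name, stood at 42.6 and 41.0 CPM against 29.6 and 29.9 CPM (0.49 ± 0.13, adjusted p = 0.0783). Mrps18b had a log2 fold change of 0.34 and Mrps18c one of -0.44, neither called. Mrps30, likewise a large subunit protein, stood at 70.0 and 69.8 CPM against 74.7 and 107 CPM (-0.38 ± 0.21, adjusted p = 0.255). Mrps36 belongs to the 2-oxoglutarate dehydrogenase complex of the citric acid cycle and not to the ribosome. It stood at 5.90 and 6.06 CPM against 3.38 and 4.47 CPM (0.61 ± 0.25, adjusted p = 0.157).

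By descent, 5 of 45 tested members with a bacterial homologue were called, with a median of 0.02 and a range from -0.84 to 1.82. Of 30 mitochondria-specific ones, 2 were called, with a median of 0.10 and a range from -0.68 to 1.09. Mrps18a and Mrps18b were counted among the mitochondria-specific ones despite their descent from S18. The share over all tested genes was 3.51%. The difference between these groups was not tested.

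Fold changes of the members followed the GC content of their transcripts, as did those of all genes. Over the 76 members, Pearson's r between log2 fold change and GC content of the longest transcript was 0.67, and over 16903 genes it was 0.56. Genes share libraries and are not independent replicates, so these are descriptions. The 15 members with 55% GC or more had a median of 0.93 and held 6 of the 7 calls (40.0% of them, against 10.7% of all genes in that range, whose median was 0.86). The 20 members under 45% GC had a median of -0.28 beside -0.55 for all such genes, and 1 call, Mrpl57. Over transcript length the medians had no single direction: 0.65 for 16 members under 1000 bases, 0.16 for 24 of 1000 to 2000, -0.18 for 25 of 2000 to 4000 and 0.07 for 11 of 4000 or more. All genes of those lengths had medians of 0.03, 0.26, 0.04 and -0.22. Pearson's r between log2 fold change and log2 transcript length was -0.39 over members and -0.13 over all genes.

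When smooth trends with GC content and length were taken out of every library, 0 members and 0 genes at all were called, with a smallest adjusted p of 0.0918 in edgeR's quasi-likelihood test. At an unadjusted p under 0.05, 25 members passed, among 4277 genes. Mrps12 kept 1.03 of its log2 fold change and Mrpl57 went to 1.42. Mrpl34 (0.10) and Mrpl2 (0.05) came close to 0, and Mrpl38 (-0.26) and Mrpl28 (-0.27) changed sign. Mrpl4 kept 0.55 with the GC content of its longest transcript and 0.02 with that of its principal transcript, an alternative chosen after seeing the data. Mrpl17, singled out after its values were seen, is long and low in GC and went from 0.46 to 1.02. Of all 76 members, 26 changed sign at this step. The members' r with GC content became -0.35 after the step, so it went past 0 for them, while that of all genes became -0.00333. GC content also moved with the difference between the wild types, which share a genotype and differ in passage: for WT2 over WT1, r was -0.57 over members and -0.29 over all genes. For KO2 over KO1 it was -0.30 and -0.15. Between knockouts and wild types, library origin, passage and genotype cannot be told apart as sources of the trend.

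**Figure D3:**
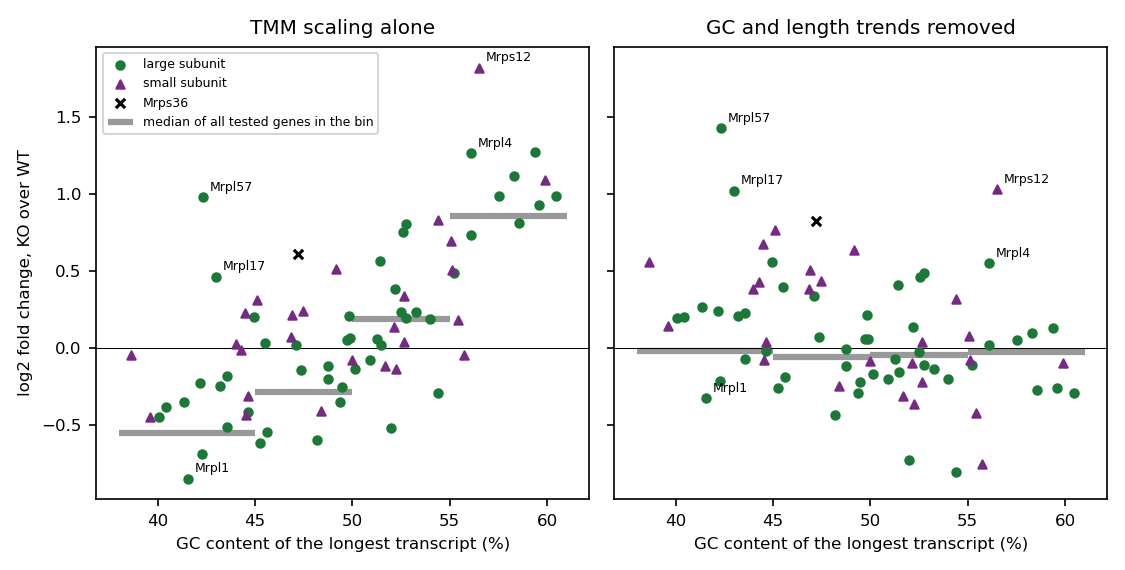
Log2 fold change of each tested member (knockouts over wild types) against the GC content of its longest transcript in percent, before and after trends with GC content and length were removed. Grey bars give the median of all tested genes under 45%, 45 to 50%, 50 to 55% and at 55% or more, from -0.55 to 0.86 on the left and near 0 on the right. Mrps12 and Mrpl57 stand above 1 on the right.

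The 2 knockout alleles gave nearly the same levels. The log2 ratio of KO2 over KO1 ran from -0.18 to 0.15 over members, with a median size of 0.041, and that of WT2 over WT1 from -0.71 to 0.93, with a median size of 0.22. The largest KO2 to KO1 ratios in size were those of Mrpl44 (-0.18), Mrpl23 (-0.17) and Mrpl46 (0.15). Mrpl44 encodes a large subunit protein with a fold of the RNase III family, to which Drosha belongs, and stood at 39.3 and 34.6 CPM against 44.0 and 61.7 CPM (-0.52 ± 0.22, adjusted p = 0.165).

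The wild-type libraries differed most for Mrpl30 (0.93 for WT2 over WT1), Mrpl15 (0.87) and Mrps11 (-0.71). Mrpl30 and Mrpl15 lie on chromosome 1, as do Mrps14 (0.57), Mrps9 (0.51) and Mrpl44 (0.49). All 5 members of that chromosome were higher in WT2, and the median over all 1070 tested genes there was 0.54. Mrpl15 stood at 239 and 239 CPM in the knockouts against 230 CPM (WT1) and 422 CPM (WT2), so its log2 fold change of -0.45 rests on WT2 and becomes 0.06 without that library. For Mrpl30, at 67.8 and 67.8 CPM against 62.0 and 119 CPM, the value goes from -0.41 to 0.14. On chromosome 15, all genes had a median of -0.61 for WT2 over WT1, while its only member, Mrpl13, had 0.12.

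**Figure D4:**
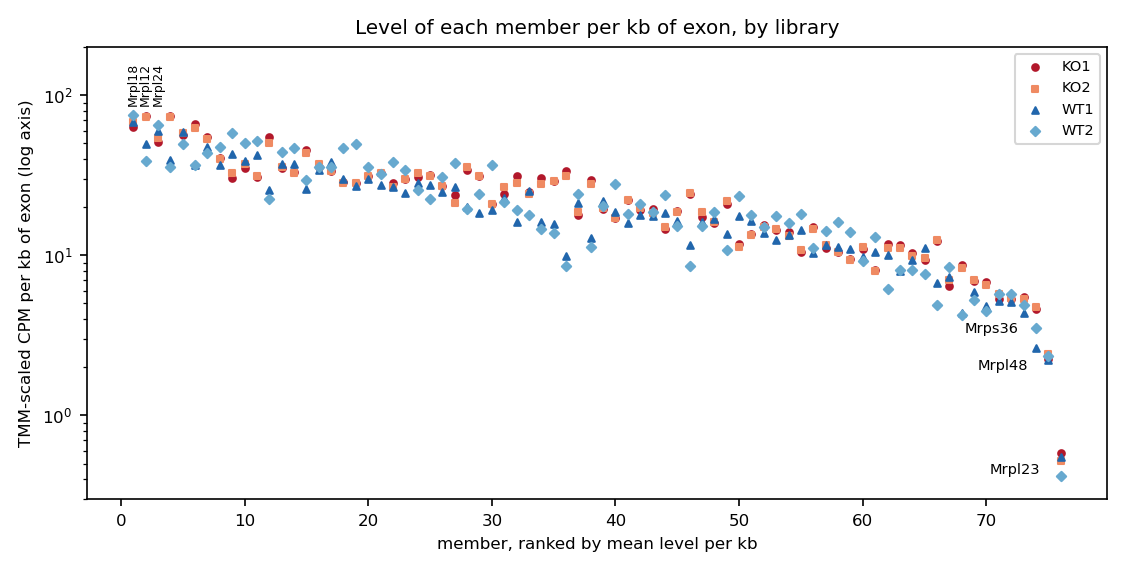
Level of each tested member in each library as TMM-scaled CPM per kb of exon (log axis), ranked by the mean over libraries. The order runs from Mrpl18 at 68.7 to Mrpl23 at 0.516, and neighbouring members overlap between libraries along most of it.

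Levels differed 133-fold between members per kb of exon, with length taken as the union of all annotated exons. The median was 20.3 CPM per kb, beside 4.05 over all tested genes. Mrpl18, the homologue of bacterial L18 in the central protuberance, was highest at 63.2 and 67.9 CPM per kb in the knockouts and 68.0 and 75.7 in the wild types. Mrpl12 (mean 59.0) and Mrpl24 (mean 57.7) followed, and Mrpl12 overlapped both neighbours, since it ranged from 38.9 to 73.9. The 3 lowest were Mrps36 (3.89), Mrpl48 (2.30) and Mrpl23 (0.516). For Mrpl23 the union of exons is 4883 bases, beside 692 for its principal transcript. For Mrpl48 these are 8152 and 4285, and for Mrpl18 1398 and 1219. The span and the low ranks therefore depend on the length used.

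Each of these 3 genes has processed pseudogenes that share sequence with it. Mrpl23 itself had 2.85 and 2.52 CPM against 2.68 and 2.03 CPM, and its pseudogene Mrpl23-ps1 27.8 and 27.5 CPM against 18.6 and 11.7 CPM. The pseudogene count exceeded that of the gene in all 4 libraries. Mrpl48-ps had 11.2 to 16.6 CPM beside 18.0 to 19.6 CPM for Mrpl48, and Mrps36-ps1 had 5.59 to 9.69 CPM beside 3.38 to 6.06 CPM for Mrps36. How the counting treated reads that fit several places is not given in the sources used here, so the levels of these members are uncertain. In all, 11 of 77 members share more than 10% of their 50-base stretches with other genes. Mrpl53 shares 78.5% with Gm42688, a gene that spans it on the same strand and had 44 to 66 counts per library, so its count of 0, which allows up to 3 counts or 0.0676 to 0.0972 CPM, does not show that the gene was silent.

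Many members start close to another gene on the opposite strand. Of 77 members, 33 had a protein-coding neighbour on the opposite strand with a start within 1000 bases. For 15 of these the neighbour starts downstream of the member's own start and the exons overlap. The share of such neighbours over all genes was not counted. Among the 18 pairs that lie apart and were both tested, member and neighbour had the same sign in 14, and Pearson's r of their log2 fold changes was 0.61. With GC and length trends removed, r was 0.08. The pairs share libraries and base composition, so this is a description.

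The member with the largest change has such a neighbour. Sars2, the mitochondrial seryl-tRNA synthetase, starts 172 bases from Mrps12 on the opposite strand and stood at 33.8 and 32.4 CPM against 12.9 and 9.19 CPM (1.58 ± 0.22, adjusted p = 0.0482). Both genes of this pair were called higher, and with trends removed Sars2 had 0.38 beside 1.03 for Mrps12. Apba3, 26 bases from Mrpl54, was the other neighbour called (1.92 ± 0.18). Ska3, 49 bases from Mrpl57, went the other way, with 63.7 and 62.2 CPM against 76.3 and 111 CPM (-0.57 ± 0.22, adjusted p = 0.141).

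**Figure D5:**
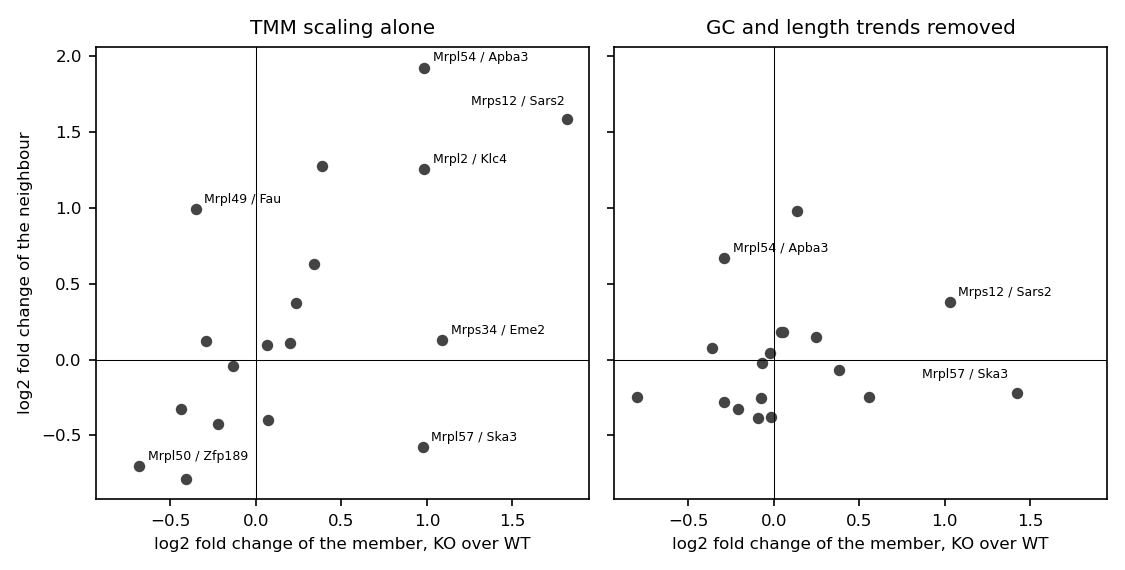
Log2 fold change (knockouts over wild types) of 18 members and of the protein-coding neighbour that starts within 1000 bases on the opposite strand, before and after trends with GC content and length were removed. On the left, 14 pairs lie in the quadrants of equal sign, with Mrps12 and Sars2 at 1.82 and 1.58; on the right the points show little common order.

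Other genes of mitochondrial translation were read from the same test, which called 3.51% of all tested genes higher and 1.94% lower. Lists this small would hold few calls at those shares. Of the 5 mitoribosome proteins known under other names, 0 were called, with log2 fold changes of 1.00 for Gadd45gip1 (adjusted p = 0.0505), 0.38 for Aurkaip1, 0.35 for Chchd1, 0.02 for Dap3 and -0.63 for Ptcd3. With trends removed these were 0.45, -0.39, 0.50, 0.03 and -0.15. Of 25 assembly factors, 0 were called, with a median of -0.10, and the smallest p was that of Mpv17l2 (0.97, adjusted p = 0.0502, and -0.41 with trends removed). Of 15 translation factors, 0 were called, with a median of -0.33 (Mtrf1, a release factor, had the smallest p, at -0.68, or -0.38 with trends removed). Of 17 mitochondrial aminoacyl-tRNA synthetases, 1 was called higher (5.88%), Sars2, with a median of -0.25.

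Of 12 genes for mitochondrial transcription and RNA processing, 0 were called, with a median of -0.45. Tfam, which packages mitochondrial DNA and acts in its transcription, stood at 62.9 and 63.4 CPM against 90.8 and 111 CPM (-0.68 ± 0.15, adjusted p = 0.0641), or -0.28 with trends removed. Of 15 ribosomal RNAs and messages made by the mitochondrial genome, 1 was called lower, mt-Atp8 (6.67%, against 1.94% of all tested genes). Their median was -0.37 and became 0.27 with trends removed.

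Of 9 tested transcription factors known to act on nuclear genes for mitochondria, 2 were called higher (22.2%, against 3.51% of all tested genes) and 0 lower. Esrra, an orphan nuclear receptor of energy metabolism, stood at 15.9 and 16 CPM against 5.03 and 3.30 CPM (1.93 ± 0.27, adjusted p = 0.0482), and its value with trends removed was 1.89. Mycn stood at 155 and 147 CPM against 76.3 and 60.3 CPM (1.14 ± 0.16, adjusted p = 0.0482), and 0.61 with trends removed. Of the factors whose letters were searched for in the promoters, Nrf1 had a log2 fold change of -0.06, Gabpa -0.68 (adjusted p = 0.0558) and Yy1 -0.80 (adjusted p = 0.0639), none of them called. With trends removed these became 0.31, -0.10 and -0.76.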

How the data were processed

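The authors deposited raw read counts per Ensembl gene for 4 poly(A) libraries, made on mm10 with STAR 2.4.2a and featureCounts 1.4.5-p1 according to the submitters' processing notes. The gene annotation used and the handling of multi-mapped reads and strand are not given in the sources used here. Symbols, biotypes, coordinates and transcripts came from GENCODE M21 (GRCm38, 97.5% of gene rows matched). Lists and members were chosen with earlier results of these data known. Counts were filtered by edgeR's filterByExpr (minimum count 10, total 15), TMM-scaled and tested with edgeR 4.0.16 (R 4.3.3, quasi-likelihood, 2 knockouts against 2 wild types, Benjamini-Hochberg over all genes, threshold 0.05). The procedure was also run on simulated counts with the same spread in all 4 libraries. The real pairs spread unequally, so that run cannot vouch for the test on these data. SE is the log2 fold change divided by the root of the F statistic. Per-library log2 CPM used a prior count of 2, and level per kb used the union of exons. Trends were lowess curves (span 0.3). Tested members had at least 73 counts in every library. Members named were the calls, up to 6 by smallest p per direction, the extremes in level and in replicate ratio, and 11 fixed genes. Alternatives were other scalings and filters, DESeq2 1.42.0, trend removal, a replicate block, added pseudogene counts, summed knockouts and leaving out each library.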

Additional observations from a re-analysis of the deposited data

How the results depend on the processing

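With 2 libraries a group, the count of members called depended on the processing. In place of 7 (9.21%, against 5.45% of all genes) it was 9 with DESeq2's size factors in edgeR (11.8%, against 5.97%), 10 with at least 1 CPM (13.2%, against 8.14%) and 14 without a filter (13 higher, 1 lower; 18.4%, against 10.1%). DESeq2 called 17 (15 higher or 19.7%, against 12.4% of all genes, and 2 lower or 2.63%, against 10.3%). It was 0, as over all genes, with the settings below, where the share of members at an unadjusted p under 0.05 was 36.8% for upper-quartile scaling (28 members, against 36.8% of all genes), 40.8% for library totals (31, against 35.9%), 32.9% with GC and length trends removed (25, against 25.1%), 31.6% with principal transcripts (24, against 23.7%) and 9.21% with knockouts summed as 1 sample (7, against 10.6%). The last pair was added after seeing the data. Leaving out 1 library gave 0 to 65: 0 without KO1 or KO2 (6 and 7 at an unadjusted p under 0.05), 65 without WT1 and 55 without WT2, where 77.7% and 68.0% of all genes were called and the lone wild type is assumed to vary like the knockouts. The median log2 fold change was 0.20 on library totals (all genes 0.13) and 0.022 to 0.13 with 1 library left out. The ratio of summed levels was 1.11 on library totals. A replicate block called 7 members, 5 of them shared (9.21%, against 11.3% of all genes), and Mrpl28 (adjusted p = 0.0508) and Mrpl57 (adjusted p = 0.0509) lost their call. Equal numbers are not a pairing by the labels (r of deviations 0.046 over 17022 genes). Among the 31 named members, signs turned on library totals for Mrpl11 (0.030) and Mrpl18 (0.015). With trends removed 26 of all 76 members turned, among them the named Mrpl10 (-0.023), Mrpl15 (0.20), Mrpl23 (-0.20), Mrpl28 (-0.27), Mrpl38 (-0.26), Mrpl46 (-0.11), Mrps11 (-0.076), Mrps18a (-0.11) and Mrps30 (0.20). With principal transcripts 23 of 76 turned, among them Mrpl11 (0.083), Mrpl23 (-0.91), Mrpl28 (-0.22), Mrpl38 (-0.25), Mrpl46 (-0.067), Mrps11 (-0.043), Mrps18a (-0.21) and Mrps30 (0.095). Mrpl48 turned with pseudogene counts added (-0.11). With 1 library left out, values of named members crossed 0 for Mrpl48 (-0.014 to 0.089), Mrpl15 (-0.82 to 0.061), Mrpl23 (-0.0020 to 0.39) and Mrpl30 (-0.81 to 0.14). The causes were not tested.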
